A study of Arabidopsis thaliana with 9 samples.

Results

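The transcripts described here are those that were at least 2-fold lower in HCT-RNAi stems than in wild-type stems of Arabidopsis thaliana while lying close to the wild-type level in ccr-1 stems. A probe set, the group of short oligonucleotides that reads a transcript on the Affymetrix ATH1 array, was taken when the mean log2 intensity of HCT-RNAi minus that of wild type was at most -1 and the mean of ccr-1 minus that of wild type lay between -0.3 and 0.3. Of 22746 probe sets, 163 met both conditions, or 0.717%. They are 12.4% of the 1317 probe sets that passed the HCT-RNAi condition, which 5.79% of all probe sets did, and 60.2% of all probe sets lay within the ccr-1 window. A single gene name could be given to 157 of the 163, and 6 stayed unnamed.

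The series measured RNA of inflorescence stems from plants of the ecotype Columbia-0, aged 1.5 months and grown with 16 h of light and 8 h of darkness, on 9 arrays. The groups were an RNA interference line against HCT (HCT-RNAi, replicates 1 to 3), the loss-of-function mutant ccr-1 (replicates 4 to 6) and the wild type (replicates 7 to 9). The labels give neither the promoter of the interfering construct nor the number of independent HCT-RNAi lines. They also do not tell whether the 3 RNAs of a group were drawn from different plants, so standard errors and p-values cover only the scatter among these 9 arrays, possibly a technical one.

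HCT transfers hydroxycinnamoyl groups to shikimate midway along the route to monolignols, and CCR1 reduces hydroxycinnamoyl-CoA esters at the entry to the branch specific to monolignols. Both steps feed lignin, the phenolic polymer that stiffens the walls of xylem and fibres in the stem. Growth of a stem also draws on enzymes that loosen and rebuild the primary wall, on aquaporins that admit water into expanding cells, and on the epidermis, which seals the stem with cuticular wax.

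Both targeted genes were low in their own line. HCT (AT5G48930) had log2 intensities of 9.0, 9.0 and 8.9 on the HCT-RNAi arrays, 11.97, 11.94 and 11.94 on the ccr-1 arrays, and 12.43, 12.54 and 12.52 on the wild-type arrays. The log2 difference of CCR1 (AT1G15950) from wild type was -0.76 in HCT-RNAi and -1.81 in ccr-1. Arrays of a group correlated at 0.997 to 0.999 and arrays of different groups at 0.949 to 0.96 over all probe sets, and the array medians lay between 6.921 and 7.045. In HCT-RNAi against wild type, 32.9% of probe sets were called higher and 27.7% lower at an adjusted p under 0.05 (limma, Benjamini-Hochberg over 22746 probe sets). The higher share of these calls was 54.2% with the deposited values and 39.5% after each array was centred on its median.

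Marker genes of other organs differed between the groups. The 8 named floral organ markers summed to 998 to 1024 in HCT-RNAi, 2888 to 3045 in ccr-1 and 256 to 270 in wild type, on the linear intensity scale. The 8 seed storage markers summed to 148 to 151 in HCT-RNAi, 75262 to 78141 in ccr-1 and 148 to 159 in wild type. Pollen markers (3 genes) summed to 558 to 576 in HCT-RNAi, 1160 to 1255 in ccr-1 and 793 to 805 in wild type. In HCT-RNAi these 3 did not move one way: TUA1 fell by 0.85 (adjusted p = 7.37e-08, limma), AGP11 rose by 0.51 (adjusted p = 0.0013, limma) and AGP6 stood at 0.12 (adjusted p = 0.122, limma). Phloem markers (2 genes) summed to 909 to 937 in HCT-RNAi, 546 to 566 in ccr-1 and 955 to 1047 in wild type. They moved in opposite directions in HCT-RNAi, where APL rose by 1.2 and SEOR1 fell by 0.56 (adjusted p = 6.16e-09 and 3.44e-06, limma). Of the 12 entries of the circadian clock list, 5 were named. All 5 were called higher in HCT-RNAi (median log2 change 1.2, with PRR7 the smallest at 0.29), as were 32.9% of all probe sets. In ccr-1 2 of them were called higher and 1 lower, against 24.7% and 30.1% of all probe sets called higher and lower in ccr-1. The log2 signal of the actin control probe set at the 3' end minus that at the 5' end, a measure of RNA degradation, was 4.36 ± 0.02 in HCT-RNAi, 3.86 ± 0.04 in ccr-1 and 3.98 ± 0.06 in wild type (SD, n = 3 each). The 3' signal was thus far above the 5' signal in every group, and only this pair of control probe sets was read. The part of organ content, clock phase and RNA quality in the falls described below was not tested. Nor was their part in the ccr-1 levels, which had to lie near wild type for a probe set to be chosen.

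**Figure D1:**
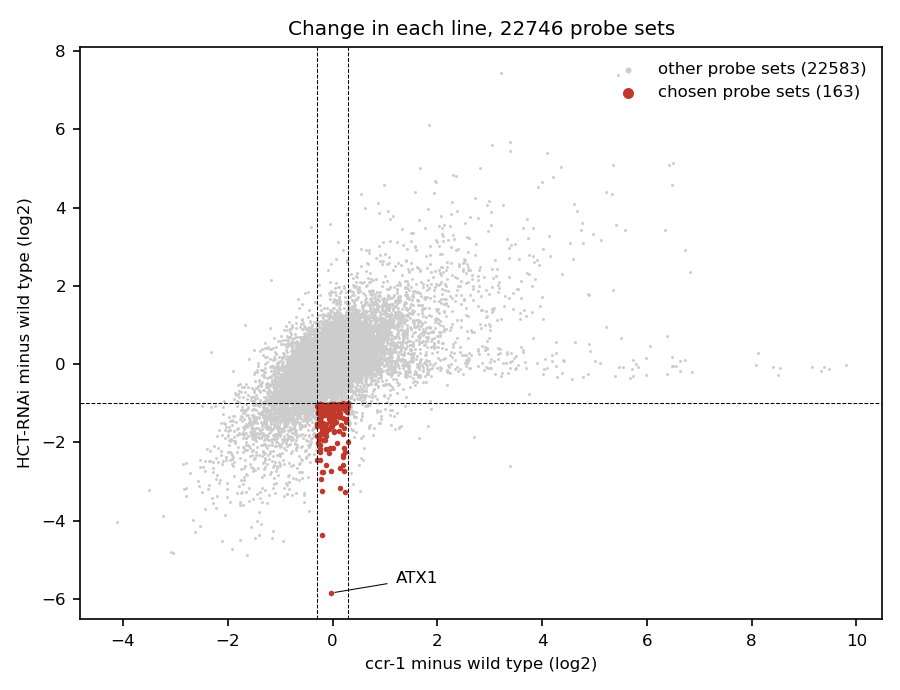
Change of each of 22746 probe sets from wild type, in ccr-1 on the x axis and in HCT-RNAi on the y axis, both as log2 differences of group means, with dashed lines at the limits of the choice. The 163 chosen probe sets (red) fill the box below -1 and between -0.3 and 0.3, most of them near its upper edge, and ATX1 lies at its foot at -5.85.

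The values that chose the 163 probe sets are given as a description, with no test. Their change in HCT-RNAi ran from -5.85 to -1.0 with a median of -1.33, where the median of all probe sets was -0.01. Most lay near the limit: 101 were between -1.5 and -1, 62 at or below -1.5, and 28 at or below -2. In ccr-1 their median change was -0.08 against -0.04 for all probe sets, with 105 below 0 and 58 above. The standard error of a member's change in HCT-RNAi had a median of 0.07 (0.05 to 0.15), and replicates had a median SD of 0.07 in HCT-RNAi, 0.07 in ccr-1 and 0.06 in wild type.

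On every one of the 163 probe sets all 3 HCT-RNAi arrays lay below all 3 wild-type arrays, which was the case for 31.3% of all probe sets, and below all 3 ccr-1 arrays, which was the case for 27.7%. The choice fixes this almost entirely. The window in ccr-1 does not mean that ccr-1 equalled wild type. The ccr-1 arrays overlapped the wild-type arrays for 77 members and did not for 86 (59.3% of all probe sets did not overlap), with all ccr-1 arrays lower for 62 members and all higher for 24. In the limma fit of ccr-1 against wild type, 53 members were called lower and 17 higher, where 30.1% and 24.7% of all probe sets were, and 93 were not called. For those 53 the description "lower only in HCT-RNAi" holds by size, within 0.3 on the log2 scale, and not as an absence of change in ccr-1.

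**Figure D2:**
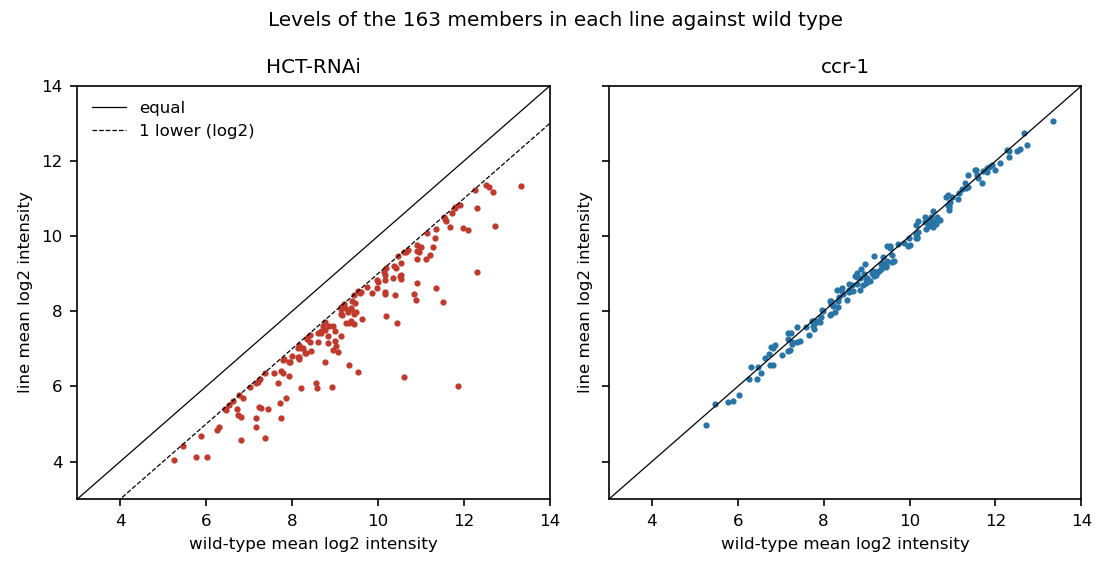
Mean log2 intensity of the 163 members in HCT-RNAi (left) and in ccr-1 (right), each on the y axis against the wild-type mean on the x axis, n = 3 arrays per group. The HCT-RNAi points lie below the dashed line of a 2-fold fall over the whole range of wild-type levels, from 5.25 to 13.34, and the ccr-1 points lie along the line of equal levels.

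Detection calls in the authors' table marked 146 of the 163 members present on all 9 arrays. On all 3 arrays of a group, 148 were present in HCT-RNAi, 160 in ccr-1 and 160 in wild type. For the 5 members called present on no HCT-RNAi array a fold is given as a lower bound, since their signals there may be background. The wild-type mean was set against, per HCT-RNAi array, the higher of its own signal and the lowest signal called present. That lowest signal was 3.229 to 3.315 on the HCT-RNAi arrays, below every signal of these 5. It therefore changed no value, and each bound equals the observed fold. Of these members, ATX1 is described below, and the others are AT1G22330, a gene for an RNA-binding protein (at least 3.14-fold lower), AT4G22460, of the lipid transfer protein family (at least 2.07-fold), AT1G50040 (at least 2.07-fold) and an unnamed probe set (at least 2.52-fold).

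The largest fall was that of ATX1 (AT1G66240), a copper chaperone related to yeast Atx1, and no probe set of the array fell further in HCT-RNAi. Its log2 intensity was 6.02, 6.02 and 5.99 on the HCT-RNAi arrays, 11.85, 11.83 and 11.8 on the ccr-1 arrays, and 11.84, 11.82 and 11.92 on the wild-type arrays. The ccr-1 and wild-type arrays overlapped, and all HCT-RNAi arrays were called absent or marginal. ATX1 was at least 57.7-fold lower in HCT-RNAi, and its difference between ccr-1 and wild type was -0.03.

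Below, a value given with a line is the log2 difference of its mean from the wild-type mean (± SE where shown, n = 3 arrays per group). AT5G19120, an aspartyl protease family gene, came next, at 6.21, 6.26 and 6.3 in HCT-RNAi, 10.42, 10.4 and 10.39 in ccr-1 and 10.56, 10.62 and 10.65 in wild type (-4.36 ± 0.05 in HCT-RNAi, -0.21 in ccr-1). All of its ccr-1 arrays lay just below the wild-type arrays and far above the HCT-RNAi arrays. AT1G49500, whose product has no described function, had 8.25, 8.23 and 8.28 in HCT-RNAi, 11.84, 11.78 and 11.65 in ccr-1 and 11.57, 11.46 and 11.53 in wild type (-3.27 in HCT-RNAi, 0.23 in ccr-1). Here the ccr-1 arrays lay just above wild type.

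AT1G72430, of the SAUR family of small auxin-induced proteins, had 6.26, 6.62 and 6.27 in HCT-RNAi, 9.79, 9.78 and 9.48 in ccr-1, and 9.5, 9.5 and 9.62 in wild type (-3.16 in HCT-RNAi, 0.14 in ccr-1). RCI2B (AT3G05890), a small membrane protein induced by cold, was at 7.64, 7.62 and 7.81 in HCT-RNAi, 10.34, 10.26 and 10.18 in ccr-1 and 10.51, 10.42 and 10.44 in wild type (-2.76 in HCT-RNAi, -0.19 in ccr-1). The ccr-1 arrays overlapped wild type for AT1G72430 and lay just below it for RCI2B. Further falls of more than 2 on the log2 scale were those of AT5G22580, a stress-responsive protein with an A/B barrel (-2.73 in HCT-RNAi), AT5G51950, a glucose-methanol-choline oxidoreductase (-2.26), AT5G44020, an acid phosphatase (-2.17), and AT1G72110, an O-acyltransferase related to the wax ester synthase WSD1 (-2.16). AT4G37240, AT5G03120, AT1G67910, AT1G69050 and AT4G33666, without a described function, lay between -2.73 and -2.15 in HCT-RNAi. Over the whole set, 23 named members had no described function and 73 had a locus code as their only name.

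**Figure D3:**
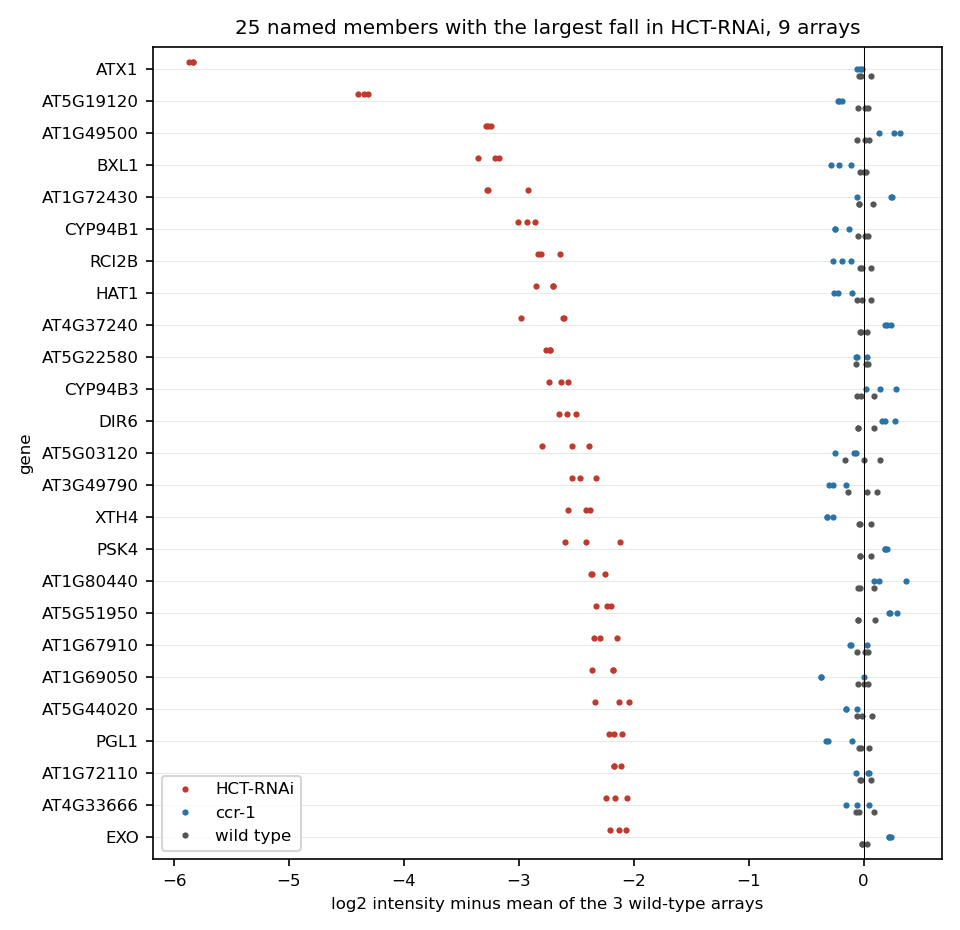
Log2 intensity of the 25 named members with the largest fall, on each of the 9 arrays, minus the mean of the 3 wild-type arrays of that gene. The HCT-RNAi arrays (red) of every gene lie at or below about -2, apart from all others; the ccr-1 arrays (blue) overlap the wild-type arrays (grey) for 11 genes, lie all above them for 6 and all below them for 8.

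Of the groups formed here by role, that of the cell wall held the most members, 22, whose changes ran from -3.24 to -1.03 in HCT-RNAi (median -1.26) and from -0.30 to 0.27 in ccr-1 (median -0.02). The groups by role were put together after the values were seen. Their shares over all probe sets were not counted, so their sizes do not show what is particular to the members. Among pectin genes matched by annotation, 4 of the 27 that passed the HCT-RNAi condition were members. For expansins and xyloglucan enzymes it was 3 of 19, and over all probe sets that passed it 12.4%. BXL1 (AT5G49360), a bifunctional xylosidase and arabinofuranosidase that trims side chains of wall polysaccharides, had 9.1, 9.14 and 8.95 in HCT-RNAi, 12.03, 12.1 and 12.2 in ccr-1, and 12.33, 12.31 and 12.28 in wild type. Every HCT-RNAi array lay about 3 below the others, and the ccr-1 arrays lay slightly below wild type (-3.24 in HCT-RNAi, -0.20 in ccr-1). XYL4 (AT5G64570), another beta-xylosidase, stood at -1.26 in HCT-RNAi and -0.08 in ccr-1.

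XTH4 (AT2G06850), XTH9 (AT4G03210) and EXGT-A3 (AT2G01850) encode xyloglucan endotransglucosylases, which cut and rejoin the xyloglucan tethers between cellulose fibrils. XTH4 had 10.31, 10.35 and 10.16 in HCT-RNAi, 12.46, 12.41 and 12.41 in ccr-1, and 12.79, 12.69 and 12.7 in wild type (-2.45 in HCT-RNAi, -0.30 in ccr-1). XTH9 had 8.72, 8.57 and 8.68 in HCT-RNAi, 9.81, 9.76 and 9.76 in ccr-1, and 9.73, 9.69 and 9.8 in wild type (-1.09 in HCT-RNAi, 0.04 in ccr-1). XTH4 stands at the edge of the ccr-1 window with all ccr-1 arrays below wild type, whereas the ccr-1 and wild-type arrays of XTH9 overlapped. EXGT-A3 stood at -1.05 in HCT-RNAi and 0.21 in ccr-1. The other 10 named genes of the xyloglucan list all fell in HCT-RNAi, and in ccr-1 8 of them fell and 2 rose. Of all probe sets, 27.7% were called lower in HCT-RNAi, and in ccr-1 30.1% were called lower and 24.7% higher. XTH18 led these 10 genes with -4.29 ± 0.09 in HCT-RNAi and -2.63 in ccr-1 (adjusted p = 7.74e-13 and 7.35e-11, limma), while XTH19 had -2.79 in HCT-RNAi and 0.34 in ccr-1 (adjusted p = 5.03e-11 and 0.0061, limma).

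The EXORDIUM family, secreted wall proteins tied to brassinosteroid-promoted growth, gave 4 members: EXO (AT4G08950), EXL2 (AT5G64260), EXL5 (AT2G17230) and PHI-1 (AT1G35140). EXO had 6.71, 6.57 and 6.65 in HCT-RNAi, 9.0, 9.0 and 9.02 in ccr-1, and 8.77, 8.77 and 8.81 in wild type (-2.14 in HCT-RNAi, 0.22 in ccr-1). PHI-1 had 4.94, 5.11 and 5.5 in HCT-RNAi, 7.03, 6.99 and 7.05 in ccr-1, and 6.81, 6.86 and 6.76 in wild type (-1.63 in HCT-RNAi, 0.22 in ccr-1), and was called present on 1 of its HCT-RNAi arrays. In both genes the ccr-1 arrays lay above the wild-type arrays and the HCT-RNAi arrays well below them. EXL5 followed the same order (-1.24 in HCT-RNAi, 0.27 in ccr-1), and EXL2 lay below wild type in both lines (-1.66 in HCT-RNAi, -0.20 in ccr-1). The other 2 named genes of the family, EXL4 and EXL7, fell in both lines, EXL4 with -2.07 in HCT-RNAi and -0.43 in ccr-1 (adjusted p = 4.77e-12 and 1.25e-05, limma).

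LRX3 (AT4G13340), a leucine-rich repeat extensin that helps to assemble the wall, stood at -2.06 in HCT-RNAi and -0.24 in ccr-1. The arabinogalactan protein genes AGP9, AGP16 and AGP18 stood at -1.26, -1.09 and -1.12 in HCT-RNAi and at -0.25, 0.07 and 0.21 in ccr-1. Pectin is represented by LGT9, a putative galacturonosyltransferase (-1.77 in HCT-RNAi), GAE1, which makes the sugar nucleotide precursor of pectin (-1.17), the pectin acetylesterase AT4G19420 (-1.56), the pectin methylesterase PME1 (-1.03), and 2 genes of the invertase and pectin methylesterase inhibitor family, AT5G38610 (-1.43) and AT2G47670 (-1.18). AT3G49790 and AT1G10150, annotated as carbohydrate-binding proteins, stood at -2.45 and -1.14 in HCT-RNAi, and AT3G55430, a glycosyl hydrolase, at -1.17. No gene of the list of secondary wall cellulose and xylan synthesis and none of the monolignol list met the rule: all 16 named genes of the first fell in both lines, and of the 8 named genes of the second 7 fell and 1 rose in each line. Of all probe sets, 27.7% fell and 32.9% rose in HCT-RNAi, 30.1% fell and 24.7% rose in ccr-1, and 0.717% met the rule.

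Aquaporins, the channels through which water crosses membranes, gave DELTA-TIP (AT3G16240), of the vacuolar membrane, and PIP1C (AT1G01620), of the plasma membrane. DELTA-TIP had 11.39, 11.36 and 11.25 in HCT-RNAi, 13.16, 13.07 and 12.97 in ccr-1, and 13.29, 13.34 and 13.39 in wild type (-2.01 in HCT-RNAi, -0.28 in ccr-1). PIP1C had 11.09, 11.19 and 11.27 in HCT-RNAi, 12.74, 12.69 and 12.78 in ccr-1, and 12.6, 12.65 and 12.75 in wild type (-1.48 in HCT-RNAi, 0.07 in ccr-1). For PIP1C the ccr-1 and wild-type arrays overlapped, and for DELTA-TIP the ccr-1 arrays lay just below wild type. A further probe set, which the authors' table annotates as a PIP2 aquaporin and which by its suffix may read several related transcripts, stood at -1.93 in HCT-RNAi and -0.16 in ccr-1. Of the 5 other named aquaporins, 4 fell and 1 rose in each line. Over all probe sets, 27.7% fell and 32.9% rose in HCT-RNAi, and 30.1% fell and 24.7% rose in ccr-1. TIP1;1 changed by -2.21 in HCT-RNAi and -0.53 in ccr-1 and PIP1;5 by -2.09 in HCT-RNAi and -1.27 in ccr-1, whereas PIP2;5 rose by 2.03 in HCT-RNAi and 1.80 in ccr-1 (limma adjusted p of at most 1.23e-05 for each).

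Genes of cuticular wax gave 5 members, which elongate very long chain fatty acids or turn them into wax components. KCS1 (AT1G01120), a condensing enzyme of elongation, had 9.34, 9.5 and 9.62 in HCT-RNAi, 11.26, 11.21 and 11.27 in ccr-1, and 11.19, 11.25 and 11.21 in wild type (-1.73 in HCT-RNAi, 0.03 in ccr-1). CER4 (AT4G33790), the reductase that forms primary alcohols, had 8.41, 8.4 and 8.53 in HCT-RNAi, 10.25, 10.27 and 10.34 in ccr-1, and 10.15, 10.18 and 10.16 in wild type (-1.71 in HCT-RNAi, 0.12 in ccr-1). KCS1 overlapped between ccr-1 and wild type, and CER4 was slightly higher in ccr-1. CER2 (AT4G24510), needed for the longest chains, stood at -1.28 in HCT-RNAi and 0.13 in ccr-1, KCS20 (AT5G43760), another condensing enzyme, at -1.24 in HCT-RNAi and -0.13 in ccr-1, and CER3 (AT5G57800), which acts with CER1 in alkane formation, at -1.09 in HCT-RNAi and -0.03 in ccr-1.

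Of the 5 other named wax genes, 4 fell and 1 rose in HCT-RNAi, and 1 fell and 4 rose in ccr-1. The shares over all probe sets were 27.7% lower and 32.9% higher in HCT-RNAi, and 30.1% lower and 24.7% higher in ccr-1. CER1 changed by -1.08 ± 0.06 in HCT-RNAi and 0.34 in ccr-1 (adjusted p = 1.1e-08 and 0.00043, limma), and MAH1, the hydroxylase that makes secondary alcohols and ketones, by -2.75 in HCT-RNAi and -0.61 in ccr-1 (adjusted p = 4.01e-13 and 4.32e-07, limma). The epidermis markers, which include CER1, KCS6 and MAH1, summed to 3913 to 4113 in HCT-RNAi, 9717 to 10391 in ccr-1 and 8888 to 9006 in wild type. The other 2 of these 5 markers, PDF1 and ATML1, rose in HCT-RNAi by 3.05 and 0.49 and in ccr-1 by 3.41 and 1.10 (limma adjusted p of at most 3.92e-05 for each), so the epidermis list did not move one way. The part of the amount of epidermis in the wax falls was not tested.

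CYP94B1 (AT5G63450) and CYP94B3 (AT3G48520) are cytochromes P450 that oxidise jasmonoyl-isoleucine, the active form of jasmonate, and AT2G38240 is a jasmonic acid hydroxylase also known as JOX4. CYP94B1 had 5.91, 5.99 and 6.06 in HCT-RNAi, 8.67, 8.79 and 8.67 in ccr-1, and 8.93, 8.87 and 8.96 in wild type (-2.94 in HCT-RNAi, -0.21 in ccr-1). CYP94B3 had 5.85, 5.96 and 6.02 in HCT-RNAi, 8.61, 8.87 and 8.73 in ccr-1, and 8.68, 8.57 and 8.53 in wild type (-2.65 in HCT-RNAi, 0.14 in ccr-1). The ccr-1 arrays of CYP94B1 lay below wild type and those of CYP94B3 overlapped it. AT2G38240 stood at -1.18 in HCT-RNAi and 0.24 in ccr-1. The third of the cytochromes on the list, CYP94C1, fell in both lines, with -2.25 in HCT-RNAi and -1.47 in ccr-1 (adjusted p = 1.26e-11 and 8.87e-10, limma), and JOX3 rose in both, by 2.47 in HCT-RNAi and 2.82 in ccr-1 (adjusted p = 1.04e-11 and 3.92e-12, limma). Of the 5 named genes of jasmonate catabolism that were no members, 4 fell and 1 rose in HCT-RNAi, and 1 fell and 3 rose in ccr-1. None of the 13 named genes of jasmonate synthesis and JAZ repressors met the rule, which takes 0.717% of all probe sets: 11 fell and 2 rose in each line. Beside these counts, 27.7% of all probe sets fell and 32.9% rose in HCT-RNAi, and 30.1% fell and 24.7% rose in ccr-1.

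Around the monolignol pathway, DIR6 (AT4G23690), a dirigent protein that steers the coupling of coniferyl alcohol radicals to a lignan, had 8.39, 8.24 and 8.31 in HCT-RNAi, 11.16, 11.08 and 11.05 in ccr-1, and 10.84, 10.84 and 10.98 in wild type (-2.58 in HCT-RNAi, 0.21 in ccr-1). AT1G80440, a kelch F-box protein also known as KFB20 that marks phenylalanine ammonia-lyases for degradation, had 7.83, 7.95 and 7.84 in HCT-RNAi, 10.29, 10.33 and 10.57 in ccr-1, and 10.17, 10.29 and 10.15 in wild type (-2.33 in HCT-RNAi, 0.19 in ccr-1). In DIR6 the ccr-1 arrays were all above wild type, and in AT1G80440 they overlapped it. SNG1 (AT2G22990), which makes sinapoylmalate, had 10.12, 10.16 and 10.32 in HCT-RNAi, 11.62, 11.66 and 11.58 in ccr-1, and 11.36, 11.3 and 11.38 in wild type (-1.14 in HCT-RNAi, 0.27 in ccr-1), with ccr-1 again above wild type. ADT4 (AT3G44720), an arogenate dehydratase of phenylalanine synthesis, stood at -1.24 in HCT-RNAi and -0.23 in ccr-1, and PAL3 (AT5G04230), of the phenylalanine ammonia-lyase family, at -1.05 in HCT-RNAi and -0.17 in ccr-1.

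Of the 4 other named genes of these side branches, 2 fell and 1 rose in HCT-RNAi (27.7% and 32.9% of all probe sets), and 1 fell and 3 rose in ccr-1 (30.1% and 24.7%). KFB01, a further kelch F-box gene, changed by -1.06 in HCT-RNAi and 0.63 in ccr-1 (adjusted p = 2.95e-09 and 5.83e-07, limma), and the sinapate glucosyltransferase UGT84A2 by 3.35 in HCT-RNAi and 1.53 in ccr-1 (adjusted p = 2.01e-11 and 3.89e-08, limma). GLC (AT1G65450) and AT5G39090 belong to the HXXXD acyltransferase family, as HCT itself does. GLC had 6.96, 6.91 and 7.05 in HCT-RNAi, 9.26, 9.16 and 9.34 in ccr-1, and 8.94, 8.94 and 9.0 in wild type (-1.98 in HCT-RNAi, 0.30 in ccr-1), and AT5G39090 stood at -1.01 in HCT-RNAi and -0.24 in ccr-1. GLC stands at the upper edge of the ccr-1 window.

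**Figure D4:**
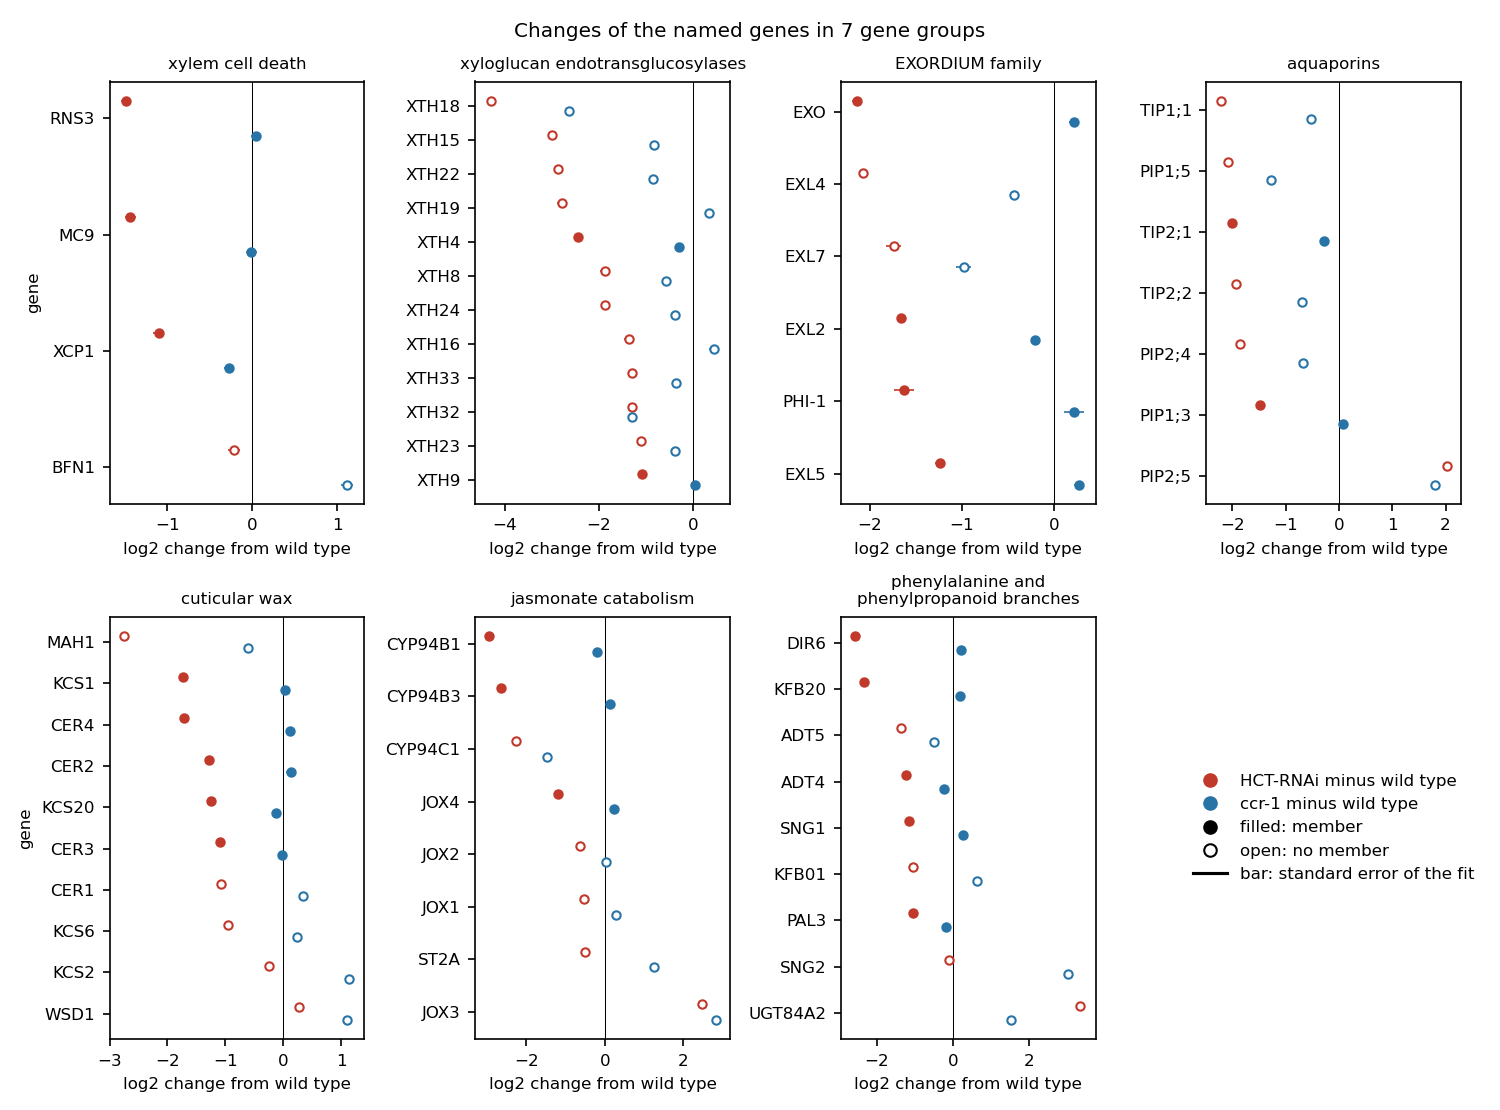
Log2 change from wild type in HCT-RNAi (red) and ccr-1 (blue) of every named gene in 7 gene groups, with the standard error of the fit as bars (n = 3 arrays per group), members filled and other genes open. Members have changes at or below -1 in HCT-RNAi and within 0.3 of 0 in ccr-1 by the rule; the open circles show that XTH18, MAH1 and CYP94C1 fell in both lines and that JOX3, PIP2;5 and UGT84A2 rose in both.

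RNS3 (AT1G26820), MC9 (AT5G04200) and XCP1 (AT4G35350) act in the death of xylem vessel cells, as a ribonuclease, a metacaspase and a cysteine protease. RNS3 had 8.96, 8.89 and 8.79 in HCT-RNAi, 10.33, 10.39 and 10.46 in ccr-1, and 10.28, 10.37 and 10.42 in wild type (-1.48 in HCT-RNAi, 0.04 in ccr-1). MC9 had 7.24, 7.15 and 7.11 in HCT-RNAi, 8.57, 8.64 and 8.53 in ccr-1, and 8.5, 8.59 and 8.7 in wild type (-1.43 in HCT-RNAi, -0.01 in ccr-1). For both, ccr-1 and wild type overlapped. XCP1 had 8.47, 8.52 and 8.46 in HCT-RNAi, 9.3, 9.3 and 9.33 in ccr-1, and 9.5, 9.55 and 9.7 in wild type (-1.10 in HCT-RNAi, -0.27 in ccr-1), with ccr-1 between the other groups. The remaining named gene of the list, the nuclease BFN1 (AT1G11190), changed by -0.22 ± 0.07 in HCT-RNAi (adjusted p = 0.0179, limma) and by 1.11 ± 0.07 in ccr-1 (adjusted p = 4.73e-08, limma). On the linear scale the 4 genes summed to 1131 to 1202 in HCT-RNAi, 2793 to 2893 in ccr-1 and 2539 to 2872 in wild type. The call of BFN1 in HCT-RNAi was lost without HCT-RNAi replicate 2 (-0.21) and without wild type replicate 9 (-0.14). In whole stems, fewer cells of a type and less RNA per cell cannot be told apart.

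Transcription factors gave 16 members, with changes from -2.75 to -1.04 in HCT-RNAi (median -1.35). HAT1 (AT4G17460), a homeodomain leucine zipper factor, had 6.63, 6.63 and 6.48 in HCT-RNAi, 9.11, 9.07 and 9.23 in ccr-1, and 9.32, 9.27 and 9.39 in wild type (-2.75 in HCT-RNAi, -0.19 in ccr-1), with ccr-1 just below wild type. In HCT-RNAi, the AP2/ERF and RAV proteins gave AT1G64380 (-2.01), AT5G07580 (-1.83), TEM1, a repressor of flowering (-1.24), AT1G22190 (-1.11), DEAR2 (-1.05) and ESE3 (-1.04). Zinc finger factors gave, also in HCT-RNAi, GATA12 (-1.52), the Dof factor AT1G47655 (-1.37), ZF2 (-1.33) and the B-box protein BBX14 (-1.06), and COL5, related to CONSTANS, stood at -1.39 there. SPL3 (AT2G33810), which promotes the floral transition, had 7.88, 7.89 and 7.98 in HCT-RNAi, 9.17, 9.17 and 9.22 in ccr-1, and 9.48, 9.43 and 9.45 in wild type (-1.53 in HCT-RNAi, -0.27 in ccr-1). The NAC factor NAC3 stood at -1.5 in HCT-RNAi, and the MYB factors MYB6 and TRY, the second an inhibitor of trichome formation, at -1.16 and -1.21 in HCT-RNAi.

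Signals and growth regulators followed. PSK4 (AT3G49780), a precursor of the growth peptide phytosulfokine, had 8.25, 8.43 and 8.73 in HCT-RNAi, 11.05, 11.04 and 11.04 in ccr-1, and 10.91, 10.82 and 10.82 in wild type (-2.38 in HCT-RNAi, 0.19 in ccr-1), with ccr-1 above wild type. RALFL22 and RALFL24, of the RALF peptide family, stood at -1.34 and -1.36 in HCT-RNAi. LOG1 (AT2G28305), which releases active cytokinin, had 8.02, 7.95 and 8.01 in HCT-RNAi, 9.79, 9.78 and 9.62 in ccr-1, and 9.45, 9.39 and 9.58 in wild type (-1.48 in HCT-RNAi, 0.26 in ccr-1), again with ccr-1 highest. The protein phosphatase 2C gene AT5G02760 stood at -1.38 in HCT-RNAi and 0.20 in ccr-1. ARL, related to ARGOS and involved in cell expansion, stood at -1.26 in HCT-RNAi, the cyclin CYCP4;1 at -1.63, and SIM, an inhibitor of cyclin-dependent kinases, at -1.36.

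Of the SAUR genes, AT4G34760 stood at -1.21 in HCT-RNAi and -0.08 in ccr-1. AT1G29450 had 7.18, 7.2 and 7.11 in HCT-RNAi, 8.55, 8.53 and 8.58 in ccr-1, and 8.4, 8.44 and 8.4 in wild type, but was called present on 2 HCT-RNAi arrays and on no ccr-1 or wild-type array. Its detection calls run against its intensities, and no fold is given for it. None of the 10 named genes of the auxin list met the rule, as 0.717% of all probe sets did. Of these 10, 8 fell and 2 rose in HCT-RNAi, where 27.7% and 32.9% of all probe sets did. In ccr-1, 7 fell and 3 rose, where 30.1% and 24.7% of all probe sets did. Stress proteins included the dehydrin COR47 (AT1G20440), with 10.27, 10.2 and 10.18 in HCT-RNAi, 11.63, 11.86 and 11.81 in ccr-1, and 11.98, 11.99 and 11.98 in wild type (-1.77 in HCT-RNAi, -0.22 in ccr-1), and NHL1, related to the harpin-induced protein of tobacco (-1.43 in HCT-RNAi, -0.25 in ccr-1). In both, the ccr-1 arrays lay between HCT-RNAi and wild type and nearer to wild type.

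Sugar and amino acid metabolism and transport gave 12 members, with a median change of -1.21 in HCT-RNAi. SWEET2 (AT3G14770), a sugar transporter, had 7.01, 7.16 and 7.29 in HCT-RNAi, 9.02, 8.76 and 8.85 in ccr-1, and 8.82, 8.84 and 8.9 in wild type (-1.70 in HCT-RNAi, 0.03 in ccr-1), so ccr-1 and wild type overlapped. The sugar porter SFP1 stood at -1.54 in HCT-RNAi and -0.22 in ccr-1, the vacuolar invertase ATBETAFRUCT4 at -1.02 in HCT-RNAi and 0.02 in ccr-1, the neutral invertase A/N-InvD at -1.09 in HCT-RNAi and -0.23 in ccr-1, and FRUCT5, a fructan exohydrolase, at -1.14 in HCT-RNAi and -0.25 in ccr-1. PGL1 (AT1G13700), a 6-phosphogluconolactonase of the oxidative pentose phosphate pathway, stood at -2.16 in HCT-RNAi and -0.24 in ccr-1. Amino acid transporter genes were, in HCT-RNAi, AT3G56200 (-1.68), CAT8 (-1.28), AT1G80510 (-1.05) and AT5G02170 (-1.01), and the asparagine synthetase ASN2 and the serine hydroxymethyltransferase SHM7 stood at -1.08 and -1.58 there.

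BXL1 also stands on the list of genes induced by darkness and sugar starvation, where it was the only member among 15 named genes. Of the other 14, 12 fell and 2 rose in HCT-RNAi, where 27.7% and 32.9% of all probe sets did, and 11 fell and 3 rose in ccr-1, where 30.1% and 24.7% did. AT3G15450, BT5 and BXL2 led them with -4.88, -4.82 and -4.73 in HCT-RNAi and -1.63, -3.04 and -1.91 in ccr-1 (limma adjusted p of at most 1.95e-07 for each), while DIN2 rose by 3.43 in HCT-RNAi and 4.73 in ccr-1 (adjusted p = 2.43e-12 and 1.71e-13, limma). ATG8E (AT2G45170), which marks autophagosomes, had 6.91, 7.11 and 7.24 in HCT-RNAi, 8.93, 8.93 and 8.76 in ccr-1, and 9.12, 8.78 and 9.16 in wild type (-1.94 in HCT-RNAi, -0.15 in ccr-1), with ccr-1 and wild type overlapping. LHCB4.3, an antenna protein of photosystem II, stood at -1.16 in HCT-RNAi and -0.10 in ccr-1, beside RCA, the only named leaf photosynthesis marker, at 15627 to 16019 in HCT-RNAi, 19320 to 20238 in ccr-1 and 20582 to 21028 in wild type (linear intensity).

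Probe sets lay close together on both sides of each limit. Just inside the HCT-RNAi limit were AT1G72240 (-1.001), AT1G71970 (-1.004) and AT5G39090 (-1.006), and just outside it AT1G24140 (-0.997), AT3G52470 (-0.996) and RAV2 (-0.991). At the lower edge of the ccr-1 window, AT1G10020 and XTH4 (both -0.299) were inside and AT3G06750 (-0.302) and AT4G25900 (-0.304) outside, with ATL8 at -0.3 beyond it before rounding. At the upper edge, BBX14 and GLC (both 0.298) were inside, and AT5G62360 and AGP7 (both 0.306) and CYP86A2 (0.313) outside. AT5G62360 and AGP7 had changes in HCT-RNAi of -2.261 and -1.941, as large as those of many members.

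The choice was repeated with each array left out. An HCT-RNAi or wild-type array that had been left out was then read against the HCT-RNAi condition only, and a ccr-1 array against the ccr-1 window only. The group mean on the other side of each difference came from arrays that had made the choice. Arrays of a group correlated at 0.997 to 0.999 and may be technical replicates. The shares therefore describe the scatter among these arrays and are no independent support for the members. Between 161 and 170 probe sets were chosen from 8 arrays, of which 148 to 160 were among the 163. The HCT-RNAi array that had played no part in the choice met the HCT-RNAi condition for 88.6% to 90.5% of the probe sets chosen without it, with a median difference from wild type of -1.35 to -1.32 and a highest one of -0.76 to -0.64. For the wild-type arrays the share was 88.7% to 95.7%. For the ccr-1 arrays, which have to fall within a window on both sides, it was 80.1% to 83.6%. No probe set chosen without an HCT-RNAi array was at or above wild type on it.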

How the data were processed

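RMA and MAS5 were used, per the submitters' processing notes, which name no version or setting. The authors deposited linear intensities for 22810 probe sets on 9 arrays, and log2 was taken here. RMA equalises the arrays' distributions and compresses changes near background. The authors' second deposited table holds 3785 probe sets with the same intensities and a detection call per array. All 163 members are in it, so their calls were available.

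Without the 64 control probe sets, 22746 were fitted with limma 3.58.1 in R 4.3.3 (lmFit, contrasts.fit, eBayes; a mean per group over all 9 arrays, Benjamini-Hochberg, called at adjusted p under 0.05). Changes are log2 differences of means of 3 arrays per group, and this number of arrays limits the precision. The fitting script was first tested on simulated data. HCT-RNAi and ccr-1 are compared with the same wild-type arrays.

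Names came from the platform annotation (13118 probe sets) and otherwise from the locus that the authors list (1738); symbols were looked up in RefSeq. Of the members, 77 were named the first way and 80 the second. Coordinates are left out because the files name no build. The members and gene lists were chosen with earlier results of these data known, and the lists of aquaporins, wax, EXORDIUM, jasmonate catabolism and phenylpropanoid side branches, and the groups by role, were drawn up after these values were seen. The lists' named genes come in part from a table selected for change on these arrays, so their counts are no independent evidence of direction.

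Genes named in the text are the 25 largest falls, members of the lists, up to 4 members of each gene family with the largest fall, 3 genes inside and outside each limit, the 6 members with the highest wild-type level, and the 2 targeted genes. Other members were named after their values were seen. List genes that are no members are given as counts with up to 4 examples. Reading each left-out array against the limits was added after the data were seen. Members were described, not tested, since the choice used their values. Some members are not reported by name here.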

Additional observations from a re-analysis of the deposited data

How the results depend on the processing

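The number of probe sets chosen depended on the limits more than on the processing. It was 103 with a ccr-1 window of 0.2, 316 with one of 0.5, 267 with an HCT-RNAi limit of -0.8 and 62 with one of -1.5. Centring each array on its median gave 207, of which 154 were among the 163, and moved the median change of all probe sets in HCT-RNAi to -0.115, from -0.015 with the deposited values. Linear means gave 162, a minimum mean log2 intensity of 6 gave 155, presence on all wild-type arrays gave 160, and leaving out 1 array gave 161 to 170. Called probe sets numbered 10871 to 15469 over all settings in HCT-RNAi against wild type (13783 with the deposited values and all arrays). The lowest number came with the minimum mean log2 intensity of 6, which leaves fewer probe sets to test. Among settings that test all probe sets the lowest was 12736. In HCT-RNAi against ccr-1 the higher share of calls was 56.9% with the deposited values and 46.2% after centring. Over the named genes and settings, 5468 values kept their call or moved by less than the replicate SD, 76 moved further, all of them after centring, 15 lost a call and 3 gained one, and no called value and no change of a member in HCT-RNAi turned its sign. No paired analysis was possible because the replicate numbers 1 to 9 are not shared between groups. Arrays give no read depth; signals of the 5 members called absent throughout HCT-RNAi are limited by background.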

Other observations

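Members grouped here under the cytoskeleton were also found. ACT11, an actin of reproductive tissue, had 7.39, 7.38 and 7.26 in HCT-RNAi, 8.98, 9.08 and 8.95 in ccr-1, and 9.18, 9.08 and 9.17 in wild type (-1.80 in HCT-RNAi, -0.14 in ccr-1). PRF1, a profilin that binds actin monomers, stood at -1.07 in HCT-RNAi and -0.29 in ccr-1. ROP1, annotated as a pollen-specific GTPase, stood at -1.3 in HCT-RNAi and 0.09 in ccr-1. The pollen markers summed on these arrays to 558 to 576 in HCT-RNAi, 1160 to 1255 in ccr-1 and 793 to 805 in wild type. Of these 3, TUA1 alone was lower in HCT-RNAi than in wild type (-0.85, adjusted p = 7.37e-08, limma), while AGP6 stood at 0.12 and AGP11 rose by 0.51 (adjusted p = 0.122 and 0.0013, limma). The part of pollen or flower tissue in these values was not tested.

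PLPB, a putative blue light receptor, stood at -1.08 in HCT-RNAi and -0.18 in ccr-1, SBH2, a sphingoid base hydroxylase, at -1.79 in HCT-RNAi and -0.24 in ccr-1, and ACA1, a putative alpha carbonic anhydrase, at -1.66 in HCT-RNAi and -0.07 in ccr-1.

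Members that are neighbours in the RefSeq gene table were AT1G72230, a cupredoxin family gene, with AT1G72240, AT3G14760 with SWEET2, and PSK4 with AT3G49790. The changes within these pairs in HCT-RNAi were -1.58 and -1.0, -1.84 and -1.70, and -2.38 and -2.45. Named members lay on chromosomes 1 to 5 in numbers of 51, 21, 30, 23 and 32, or 1.33%, 0.882%, 0.998%, 1.06% and 0.946% of the named probe sets there.

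The 6 unnamed members stood at -1.93 to -1.05 in HCT-RNAi. For 2 of them the platform annotation gives AT1G22330 and GLC, whose own probe sets are also members, and the authors' table gives a neighbouring locus, so these probe sets may read the same transcripts.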
